A study of Rattus norvegicus with 12 samples.

Results

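The matricellular genes examined here were 10 genes chosen by name: Postn, Sparc, Tnc, Thbs1, Thbs2, Spp1, Ccn1 and Ccn2, which encode secreted matricellular proteins, Fn1, which encodes fibronectin, and Cd44, which encodes a receptor. Members were all probes of the deposited array table whose gene symbol in the probe annotation was one of these. Of the 10 genes, 8 had a probe, with 1 probe each among the 22523 of the array, and 2 (Tnc and Thbs1) had no probe under their symbol in the annotation used here. All 8 probes passed the detection filter and were tested among 11695 genes. Of these, 8383 had a symbol, and the others were probes without a single symbol, each counted as a gene. Shares and ranks over all genes below include them.

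Expression was measured in 6 tumours of 9L cells carrying EGFRvIII and in 6 tumours of 9L cells carrying the empty vector (EV), each from its own rat. 9L is a rat gliosarcoma line, and EGFRvIII is a truncated epidermal growth factor receptor that signals without ligand. Cells were placed 2 mm deep in the cortex of female Fischer rats 4 to 6 weeks old, and both kinds of tumour were removed after 3 weeks without treatment. The EGFRvIII cells had been made by transfection with pcDNA3.1(+) and selected in zeocin at 600 µg/ml; the labels do not describe how the EV line was made or selected. The labels do not say whether a line was 1 clone or a pool. The labels name 1 line per group, so EGFRvIII and other differences between the lines cannot be told apart. The hosts were syngeneic, and a tumour sample can hold their brain, vessel and immune cells.

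Matricellular proteins are secreted into the matrix but serve less as scaffold than as signals. They bind integrins, syndecans, growth factors and collagen, and they tune how firmly cells adhere and move. Periostin, SPARC and thrombospondin 2 are known for roles in collagen assembly. Osteopontin (Spp1) is a ligand of integrins and of CD44, which is best known as the hyaluronan receptor. CCN1 and CCN2 are encoded by early-response genes and are classic targets of YAP and TAZ acting through TEAD factors. Fibronectin is the fibrillar glycoprotein on which much of this matrix is assembled.

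Between 11182 and 12040 probes were detected on the EGFRvIII arrays and between 11720 and 12719 on the EV arrays. The 75th percentile of the signal lay at 98.65 to 121 on EGFRvIII arrays and at 128.9 to 154.65 on EV arrays, so EGFRvIII arrays were dimmer before normalization. Among general markers of glioma and gliosarcoma lines, Vim, Nes, S100b, Gfap and Sox2, 5 of 5 passed the detection filter; Nes and Sox2 were called lower in EGFRvIII tumours and the other 3 were not called. The probe for rat Egfr was above background on 0 of 12 arrays, and which species the introduced sequence came from, and so whether this probe checks it, is unknown here. Levels below are normalized log2 intensities, and a change is the EGFRvIII mean minus the EV mean ± SE. A gene was called when its adjusted p in limma, over all 11695 genes, was under 0.05.

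Matricellular genes went in both directions in EGFRvIII tumours. Cd44, Spp1 and Ccn1 were called higher, and Postn, Fn1 and Thbs2 were called lower. Sparc and Ccn2 were not called. Thus 6 of 8 members were called, against 21.5% of all genes. The members were chosen with earlier results of these data known, so this share is a description only. The calls made 3 of 8 members higher, against 11.1% of all genes, and 3 of 8 lower, against 10.4% of all genes. Over 27 alternative settings, 2 to 3 members were called higher and 2 to 4 lower. The groups did not overlap for 3 of 8 members (Postn, Spp1 and Cd44), against 11.1% of all genes. The median change of the 8 was -0.62, beside 0.01 over all genes tested. The split of all calls moved with the scaling: 1299 genes were higher and 1220 lower after quantile normalization, 768 and 1799 after scaling each array to a common median of all probes, and 2157 and 1005 after scaling to the median of detected probes. The direction of each of the 8 members was the same under all of these.

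**Figure D1:**
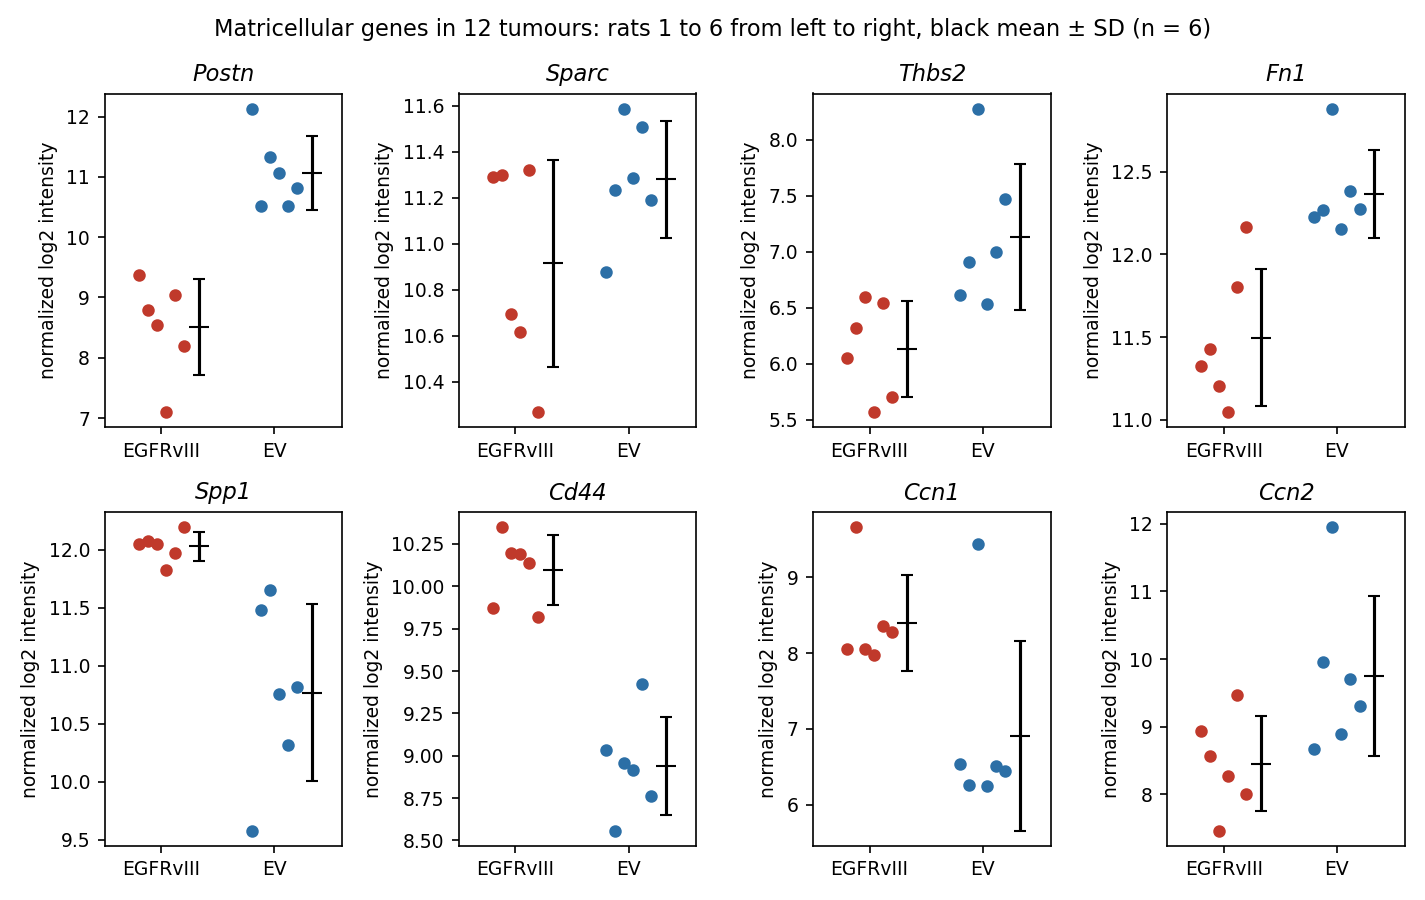
Normalized log2 intensity of the 8 measured matricellular genes in every tumour, with EGFRvIII tumours in red on the left and EV tumours in blue on the right of each panel, rats 1 to 6 from left to right, and the mean ± SD in black (n = 6 each). Postn separates the groups downward, Spp1 and Cd44 separate them upward, and EV rat 3 is the highest EV tumour for Thbs2, Fn1, Ccn1 and Ccn2.

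Postn, which encodes periostin, a collagen-binding protein with fasciclin domains made mainly by fibroblasts and other mesenchymal cells, showed the largest difference of the 8. Its deposited signal ranged from 115.8 to 534.4 (median 369.95) in EGFRvIII tumours and from 1455.3 to 5119.2 (median 2070.7) in EV tumours. On the log2 scale the lowest, median and highest values were 7.10, 8.66 and 9.38 in EGFRvIII tumours, against 10.51, 10.94 and 12.13 in EV tumours. Every EGFRvIII tumour lay below every EV tumour, with EGFRvIII rat 4 the lowest of all and EV rat 1 the highest. The means were 8.51 ± 0.80 and 11.06 ± 0.61 (SD, n = 6 each), and Postn fell 5.86-fold (-2.55 ± 0.36, limma adjusted p = 3.4e-04). It ranked 6 among the 11695 genes ordered from the most negative change. Leaving out any one tumour kept the change between -2.73 and -2.27. In bulk tumours, fewer cells of a type and less RNA per cell cannot be told apart. The stretch before the start of Postn is shown as that of the member with the largest difference. It covers the 250 bases before a transcript start in RefSeq (GRCr8, chr2:140677811-140678060, plus strand), with the TATA box letters TATAAA in capitals 44 bases before that start. The RefSeq gene begins further upstream, at 140677774, so the stretch shown lies inside the gene.
Postn: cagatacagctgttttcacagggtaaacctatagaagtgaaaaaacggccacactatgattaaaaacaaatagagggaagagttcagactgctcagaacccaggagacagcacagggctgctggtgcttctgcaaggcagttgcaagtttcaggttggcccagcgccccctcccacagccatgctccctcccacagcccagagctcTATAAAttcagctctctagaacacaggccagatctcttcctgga

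Markers of fibroblasts and meninges mostly moved with Postn. Of 12 such markers, 10 passed the detection filter, 6 were called lower, 1 higher and 3 were not called, beside 10.4% lower and 11.1% higher over all genes, the shares against which the other marker counts below also stand. Fap and Aldh1a2 did not pass the filter. The 1 higher marker was Dpt (3.83-fold, limma adjusted p = 0.00171). The summed level of the 10, in units of 1000 normalized intensity, was 5.03 to 8.79 in EGFRvIII tumours and 11.4 to 29.0 in EV tumours, again without overlap. Col1a2 was on average the brightest of the 10, at 11.67 in EGFRvIII tumours and 12.97 in EV tumours, and so weighed most in this sum. Among EGFRvIII tumours rat 4 was lowest and rat 1 highest for both Postn and this sum. Among EV tumours the order differed: rat 1 had the highest Postn and the lowest sum (11.4), and rat 3 had the highest sum (29.0). Endothelial markers (10 of 13 past the filter, Cdh5 not) also lay apart, with sums of 1.28 to 2.62 in EGFRvIII tumours against 2.91 to 5.11 in EV tumours; 6 were lower, 0 higher and 4 not called. Pericyte and smooth muscle markers (6 of 10 past the filter, Cnn1 not) summed to 0.735 to 1.30 in EGFRvIII tumours and 0.475 to 0.744 in EV tumours, with 2 higher, 0 lower and 4 not called. The 2 higher were Des (8.66 in EGFRvIII tumours, 7.39 in EV tumours) and Anpep (8.46 and 6.83), the brightest of the 6 in EGFRvIII tumours. The 4 not called had changes between -0.55 and -0.06, so the markers of this list did not move together. Of astrocyte markers, 8 of 10 were tested and 1 was lower, with sums of 5.67 to 9.79 in EGFRvIII tumours and 9.70 to 22.3 in EV tumours. The 1 lower marker was Gja1, at 12.26 in EGFRvIII tumours and 13.08 in EV tumours. It was on average the brightest of the 8 and so weighed most in this sum, and the other 7 were not called. Markers of neurons (7 of 10 tested), oligodendrocytes (6 of 9) and T cells (6 of 8) had 0 calls. Their sums overlapped between the groups, at 0.199 to 2.29, 0.453 to 1.72 and 0.347 to 4.35 in EGFRvIII tumours and at 0.205 to 8.44, 0.673 to 4.00 and 0.233 to 4.23 in EV tumours. In bulk tumours, marker RNA of host cells cannot be told apart from marker RNA of the 9L cells themselves. The part of the cell types named here in the matricellular changes was not tested.

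**Figure D2:**
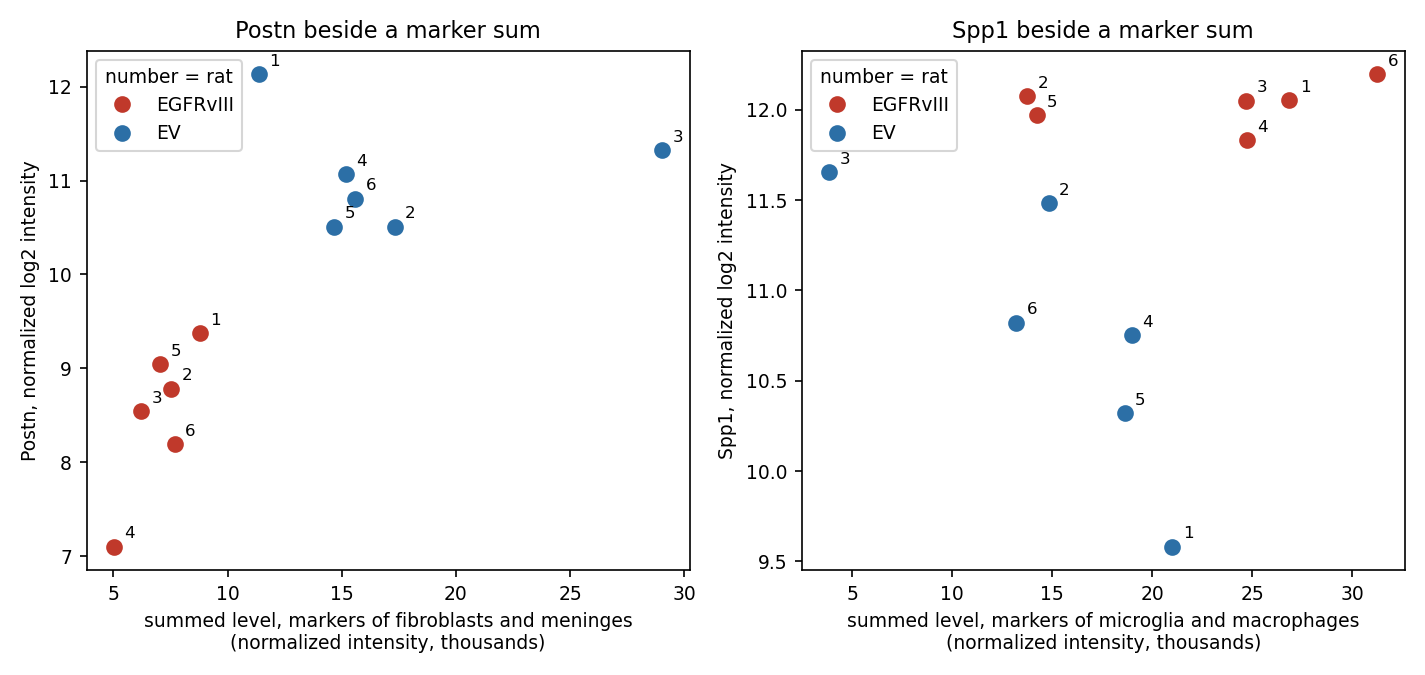
Left, normalized log2 intensity of Postn against the summed level of fibroblast and meningeal markers; right, that of Spp1 against the summed level of microglia and macrophage markers, each in units of 1000 normalized intensity, with 1 point per tumour numbered by rat (red EGFRvIII, blue EV). Both Postn and its marker sum separate the groups, while for Spp1 EGFRvIII rat 6 has the highest value and sum of its group (12.20 and 31.3) and EV rat 3 combines the lowest sum (3.85) with the highest Spp1 of its group (11.66).

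Fn1 and Thbs2 fell by smaller amounts. Fn1 had lowest, median and highest values of 11.05, 11.38 and 12.16 in EGFRvIII tumours, against 12.16, 12.27 and 12.88 in EV tumours. The groups overlapped slightly at EGFRvIII rat 6 and EV rat 4 and were otherwise apart. The means were 11.50 ± 0.42 in EGFRvIII tumours and 12.37 ± 0.26 in EV tumours (SD, n = 6 each), 1.83-fold lower (-0.87 ± 0.18, limma adjusted p = 0.00409). Thbs2, a thrombospondin that inhibits angiogenesis and shapes collagen fibrils, was the dimmest member, with 5.57, 6.19 and 6.59 as lowest, median and highest in EGFRvIII tumours, against 6.53, 6.95 and 8.28 in EV tumours. EGFRvIII rats 3 and 5 lay above EV rat 4, and the other 4 EGFRvIII tumours lay below all EV tumours. It fell 2.00-fold (by 1.00 ± 0.29 on the log2 scale, limma adjusted p = 0.0243). The Thbs2 call was lost without EGFRvIII rat 4 (adjusted p = 0.0570) or without EV rat 6 (adjusted p = 0.0519).

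Fn1 and Postn, whose proteins bind each other in the matrix, fell by unequal amounts. The per-tumour log2 difference Fn1 minus Postn averaged 2.99 ± 0.81 in EGFRvIII tumours (range 1.95 to 3.97) and 1.31 ± 0.65 in EV tumours (range 0.10 to 1.88). The shift of 1.68 had an exact two-sided permutation p of 0.00216, the smallest that 6 against 6 tumours allow, and 0.00325 adjusted over 3 pairs. The members were chosen with earlier results of these data known, so the p of each pair describes these tumours only. Whether the Fn1 and Postn probes respond alike was not tested. Of the 5 pairs chosen, those with Tnc or Thbs1 had no value.

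Sparc, which encodes a calcium- and collagen-binding glycoprotein, was not called. Its lowest, median and highest values were 10.27, 10.99 and 11.32 in EGFRvIII tumours, against 10.88, 11.26 and 11.59 in EV tumours. EGFRvIII rats 3, 4 and 6 lay below all EV tumours, and EGFRvIII rats 1, 2 and 5 lay within the EV range. The difference was -0.36 ± 0.19 (limma adjusted p = 0.191), and its 95% interval ran from -0.77 to 0.04.

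Spp1 and its receptor gene Cd44 were both higher in EGFRvIII tumours. The deposited Spp1 signal was 3726.2 to 4609.3 in EGFRvIII tumours and 868.6 to 2876.1 in EV tumours. On the log2 scale Spp1 had 11.83, 12.05 and 12.20 as lowest, median and highest in EGFRvIII tumours, against 9.58, 10.79 and 11.66 in EV tumours. EGFRvIII tumours sat close together (SD 0.12) above all EV tumours, which were spread more widely (SD 0.76), with EV rat 1 lowest. Spp1 rose 2.39-fold (1.26 ± 0.28, limma adjusted p = 0.00572). Cd44 had 9.82, 10.16 and 10.35 in EGFRvIII tumours, against 8.56, 8.94 and 9.42 in EV tumours. No EGFRvIII tumour reached down to EV rat 5, the highest of its group. Cd44 rose 2.22-fold (1.15 ± 0.14, limma adjusted p = 1.3e-04), and its change stayed between 1.08 and 1.25 when any one tumour was left out. A difference in the size of the 2 rises was not detected: Spp1 minus Cd44 averaged 1.93 ± 0.29 in EGFRvIII tumours and 1.83 ± 0.95 in EV tumours, a shift of 0.11 with an exact permutation p of 0.786 (adjusted 0.786).

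Microglia and macrophages also make Spp1 and Cd44. Of 16 of their markers, 13 had a probe and 12 passed the detection filter (Cd163 did not), 3 were called higher (Mrc1, Trem2 and Cd14), 0 lower and 9 were not called. Mrc1 (11.9-fold) and Trem2 (6.37-fold) separated the groups in full, and Cd14 (1.92-fold) did not. The summed level of the 12 was 13.8 to 31.3 in EGFRvIII tumours and 3.85 to 21.0 in EV tumours, with overlap. Such a sum weighs bright genes most, such as Fcer1g (12.46 in EGFRvIII tumours, 11.70 in EV tumours) and Aif1 (11.90 and 11.58), both not called. In the EGFRvIII group rat 6 had both the highest sum (31.3) and the highest Spp1 (12.20), while rat 2 had the lowest sum (13.8) with a Spp1 of 12.07 and rat 4 the lowest Spp1 (11.83) with a sum of 24.7. EV rat 1 had the highest sum (21.0) and the lowest Spp1 (9.58), and EV rat 3 had the lowest sum (3.85) and the highest Spp1 (11.66). The part of these cells in the rise of Spp1 and Cd44 was not tested further.

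Ccn1 and Ccn2, relatives that promote adhesion and matrix production, differed in opposite directions. The 250 bases before their RefSeq starts are shown because both are textbook TEAD targets. The part of TEAD factors in their levels was not tested. Capitals mark the TEAD letters GGAATG or their reverse complement, the SMAD letters CAGACA and the TATA box letters TATAAA; no 2 of these matches overlap. The Ccn1 stretch is chr2:237225690-237225939 and the Ccn2 stretch chr1:22624615-22624864, both minus strand in GRCr8 and printed in the direction of transcription.
Ccn1: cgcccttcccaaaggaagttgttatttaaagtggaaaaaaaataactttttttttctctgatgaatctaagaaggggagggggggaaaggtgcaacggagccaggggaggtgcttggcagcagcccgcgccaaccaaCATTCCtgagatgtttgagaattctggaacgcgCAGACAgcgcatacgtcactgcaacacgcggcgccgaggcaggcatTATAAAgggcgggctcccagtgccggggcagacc
Ccn2: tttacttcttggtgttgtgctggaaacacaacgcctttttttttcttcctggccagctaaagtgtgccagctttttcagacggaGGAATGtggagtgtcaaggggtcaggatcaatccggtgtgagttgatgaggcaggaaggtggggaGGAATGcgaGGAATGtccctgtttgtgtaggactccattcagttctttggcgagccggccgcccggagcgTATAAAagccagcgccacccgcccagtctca

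The Ccn1 stretch held the TEAD letters once, 113 bases before the start, and the Ccn2 stretch held them 3 times, at 166, 101 and 92 bases before it. Both had a TATA box, at 34 bases in Ccn1 and 31 bases in Ccn2. Ccn1 had 7.98, 8.17 and 9.66 as lowest, median and highest in EGFRvIII tumours, against 6.24, 6.48 and 9.44 in EV tumours. EGFRvIII tumours other than rat 2 lay between 7.98 and 8.36, and EV tumours other than rat 3 lay between 6.24 and 6.54. EV rat 3 (9.44) thus exceeded 5 of the 6 EGFRvIII tumours. Ccn1 rose 2.80-fold, close to the threshold (1.49 ± 0.50, limma adjusted p = 0.0475). Without EV rat 3 the change was 2.00 with an adjusted p of 3.2e-04, and without any one of the other 11 tumours the adjusted p lay between 0.0600 and 0.101 and the call was lost.

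Ccn2 ran the other way, with 7.47, 8.42 and 9.47 in EGFRvIII tumours, against 8.67, 9.51 and 11.95 in EV tumours. The ranges overlapped, and EV rat 3 stood 2.65 above the mean of the other 5 EV tumours. The Ccn2 change of -1.29 ± 0.49 was not called (limma adjusted p = 0.0749, 95% interval -2.34 to -0.25). It was called without EV rat 1 (-1.51, adjusted p = 0.0454), and it was -0.85 without EV rat 3 (adjusted p = 0.0948). The per-tumour difference Ccn1 minus Ccn2 separated the groups in full. It averaged -0.06 ± 0.86 in EGFRvIII tumours (range -1.11 to 1.10) and -2.84 ± 0.55 in EV tumours (range -3.70 to -2.12). The shift of 2.78 had an exact two-sided permutation p of 0.00216, the smallest that 6 against 6 tumours allow (0.00325 adjusted over the 3 pairs), and it lay between 2.55 and 2.99 when any one tumour was left out. EV rat 3, high in both genes, was within the EV range for this difference.

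**Figure D3:**
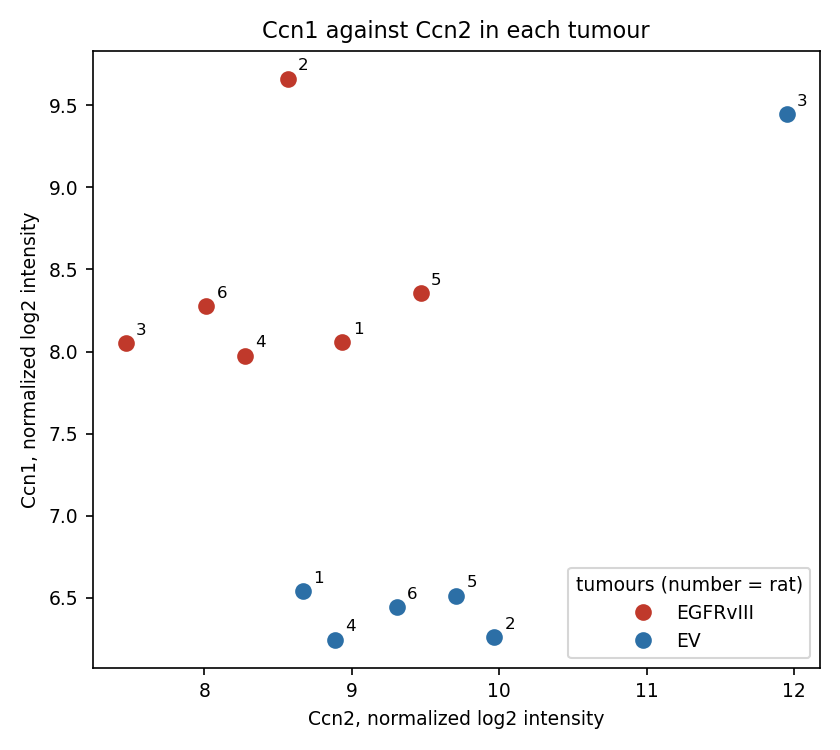
Normalized log2 intensity of Ccn1 (vertical) against Ccn2 (horizontal), 1 point per tumour numbered by rat, EGFRvIII in red and EV in blue. At a given Ccn2 level the EGFRvIII tumours carry more Ccn1, and EV rat 3 lies far to the upper right at 11.95 for Ccn2 and 9.44 for Ccn1.

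EV rat 3 carried the highest EV value for 6 of the 8 members, Sparc, Thbs2, Spp1, Ccn1, Ccn2 and Fn1, but not for Postn or Cd44. The share of all genes highest in this tumour was not computed, so the count is not read as particular to the members. It stood above the mean of the other 5 EV tumours by 3.04 for Ccn1, 2.65 for Ccn2, 1.38 for Thbs2, 1.06 for Spp1, 0.62 for Fn1 and 0.37 for Sparc. For Postn it stood 0.32 above them and for Cd44 0.02. The same tumour had the highest fibroblast and meningeal sum and the lowest macrophage sum of the EV group. Among tumours of the same group, with group means removed (n = 12), Ccn1 and Ccn2 had r = 0.73 and rho = 0.50 (within-group permutation p = 0.0624 and 0.0875, adjusted 0.250 and 0.365 over 28 pairs). This relation rested on EV rat 3, since r was 0.12 without it, and 0.36 without EV rat 3 and EGFRvIII rat 2, the tumours farthest from the median for Ccn1. Sparc and Ccn2 had r = 0.65 and rho = 0.73 (permutation p = 0.00961 and 0.00471, adjusted 0.250 and 0.132), and r was 0.66 without EGFRvIII rats 5 and 6, which lay farthest out for Sparc. In all, 0 of 28 pairs of members passed after adjustment.

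**Figure D4:**
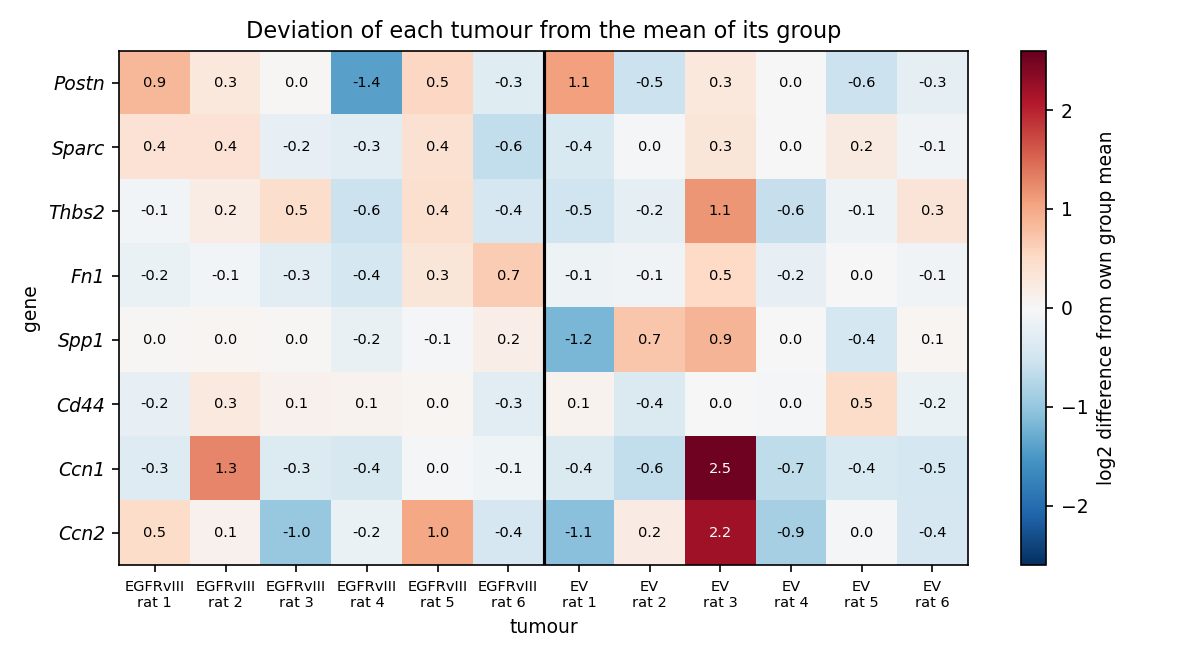
Difference of each tumour from the mean of its own group for the 8 measured genes, in log2 units, with the EGFRvIII tumours left of the line and the EV tumours right of it (red above, blue below the group mean). The strongest red cells belong to EV rat 3 in Ccn1 and Ccn2, while EGFRvIII rat 4 is the lowest of its group for Postn, Thbs2, Fn1, Spp1 and Ccn1.

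By likeness over the 12 tumours with group means removed, the genes closest to Postn among 8375 other genes with a symbol were Cxxc5 (r = 0.873), Or8k20 (r = 0.858) and B4galt7 (r = 0.845). Closest to Cd44 were Uhmk1 (r = 0.917), Clic4 and Msn (both r = 0.912). Msn encodes moesin, a cytoskeletal linker that binds the tail of CD44. These genes were picked as the highest of all, so the coefficients carry no p. Rank correlations lay between 0.741 and 0.902. Without the 2 tumours farthest from the median, r was 0.852 for Cxxc5, 0.663 for Or8k20 and 0.733 for B4galt7, and 0.789 to 0.835 for the 3 genes most like Cd44. Or8k20 was close to background, at 4.86 in EGFRvIII tumours and 4.83 in EV tumours.

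Other matricellular and related secreted proteins were examined as a list of 23 genes, of which 18 had a probe and 15 were tested. Of these 15, 3 were called higher, 1 lower and 11 not called, beside 11.1% of all genes higher and 10.4% lower (median -0.24, beside 0.01 over all genes). Ccn4, a CCN protein induced by WNT1 signalling, rose 4.02-fold, with 8.41 ± 0.27 in EGFRvIII tumours and 6.40 ± 0.35 in EV tumours (2.01 ± 0.18, limma adjusted p = 9.5e-06). Ccn5, a CCN protein lacking the C-terminal domain, fell 3.20-fold (-1.68 ± 0.30, adjusted p = 0.00172). Lgals3, which encodes galectin 3, a sugar-binding lectin abundant in macrophages, rose 3.30-fold (1.72 ± 0.27, adjusted p = 6.8e-04). For these 3 genes the groups did not overlap. The other gene called higher, named after its values were seen, was Tgfbi, a fasciclin-domain relative of periostin (1.30 ± 0.37, adjusted p = 0.0232, and 0.0540 without EGFRvIII rat 4). The related Ccn3 had a difference of 0.81 ± 0.55 (adjusted p = 0.326). The count of lower genes was 2 without EV rat 2, EV rat 6 or EGFRvIII rat 6.

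Among receptors of these proteins, 19 genes gave 10 tested, of which 1 was higher, 1 lower and 8 were not called (median -0.01, beside 0.01 over all genes). Both counts lay near the 11.1% higher and 10.4% lower of all genes. Sdc1, syndecan 1, a heparan sulphate co-receptor, rose 2.15-fold (1.10 ± 0.16, adjusted p = 4.5e-04). Itgb8, an integrin subunit that activates latent TGF-beta, fell by 0.54 ± 0.12 (adjusted p = 0.00641), with -0.93 to -0.29 over the alternatives. It was detected in 5 of 6 EGFRvIII tumours and 6 of 6 EV tumours and was dim, at 5.04 ± 0.21 in EGFRvIII tumours and 5.58 ± 0.19 in EV tumours. Itgb1, the integrin beta 1 subunit shared by many receptors, had -0.19 ± 0.15 (adjusted p = 0.417). The count of higher receptors was 2 without EV rat 3, EGFRvIII rat 1 or EGFRvIII rat 6, and that of lower receptors was 2 without EGFRvIII rat 1.

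Hyaluronan, the main ligand of CD44, was followed through 14 genes of its synthesis, binding and breakdown, 8 of them tested. Vcan, the hyaluronan-binding proteoglycan versican, was the 1 lower gene (-1.22 ± 0.12, adjusted p = 2.1e-05). Layn, the membrane hyaluronan receptor layilin, was the 1 higher gene (0.74 ± 0.21, adjusted p = 0.0231, and 0.0543 without EGFRvIII rat 4). The other 6 were not called, and the median was 0.00, beside 0.01 over all genes. The 2 of 8 called stand beside 21.5% of all genes. Of the synthases, Has1 had -0.08 ± 0.28 and Has2 and Has3 did not pass the detection filter.

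Collagens and crosslinkers that periostin and fibronectin work with were tested for 15 of 16 genes. Of the 15, 6 were lower, against 10.4% of all genes, 1 was higher, against 11.1% of all genes, and 8 were not called. The median was -0.64, beside 0.01 over all genes. Col1a2, a chain of type I collagen, was at 11.67 ± 0.19 in EGFRvIII tumours and 12.97 ± 0.29 in EV tumours (-1.30 ± 0.13, adjusted p = 3.4e-05). Col3a1, of type III collagen, fell by 1.30 ± 0.40 (adjusted p = 0.0331). Leaving out EV rat 3, EV rat 6 or any of EGFRvIII rats 2 to 5 singly ended that call (adjusted p between 0.0583 and 0.0662). Lox, the lysyl oxidase that crosslinks collagen, rose by 0.72 ± 0.22 (adjusted p = 0.0320). Leaving out EV rat 1, EV rat 5, EV rat 6 or any of EGFRvIII rats 3 to 6 singly ended the Lox call, which left 0 higher (adjusted p between 0.0514 and 0.0689). The crosslinkers did not move together. Tgm2, given here only beside Lox, was called lower (-1.11 ± 0.15, limma adjusted p = 2.7e-04). Loxl1 (-0.60 ± 0.23) and Loxl2 (0.27 ± 0.19) were not called. Col1a1, Col1a2, Col3a1 and Dcn of this list are also among the fibroblast markers above.

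Genes of 2 signalling routes known to act on matricellular genes were followed too. Of 16 genes of YAP, TAZ, TEAD factors and their targets, 10 were tested, 1 was higher (Axl, a receptor tyrosine kinase, 0.60 ± 0.15, adjusted p = 0.0117), 1 was lower (Crim1, -0.51 ± 0.10, adjusted p = 0.00410) and 8 were not called (median 0.07, beside 0.01 over all genes). That is 2 of 10 called, close to the 21.5% of all genes. Yap1 and Ankrd1 did not pass the detection filter. Of 13 TGF-beta ligands, receptors and Smads, 9 were tested, 1 was higher, 2 lower and 6 not called (median -0.11, beside 0.01 over all genes), or 3 of 9 called against 21.5% of all genes. The ligand Tgfb3 fell by 0.56 ± 0.14 (adjusted p = 0.00988), with no overlap of the groups. The ligand Tgfb2 was detected in 2 of 6 EGFRvIII tumours and 6 of 6 EV tumours and was called lower (adjusted p = 0.0154). Its difference, -1.21 ± 0.32 here, ranged from -2.45 to -0.70 over the alternatives, so its size is uncertain near background. Pmepa1, a TGF-beta target that dampens Smad signalling, rose by 1.04 ± 0.25 (adjusted p = 0.00883). Tgfb1 was not called (0.08 ± 0.14).

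**Figure D5:**
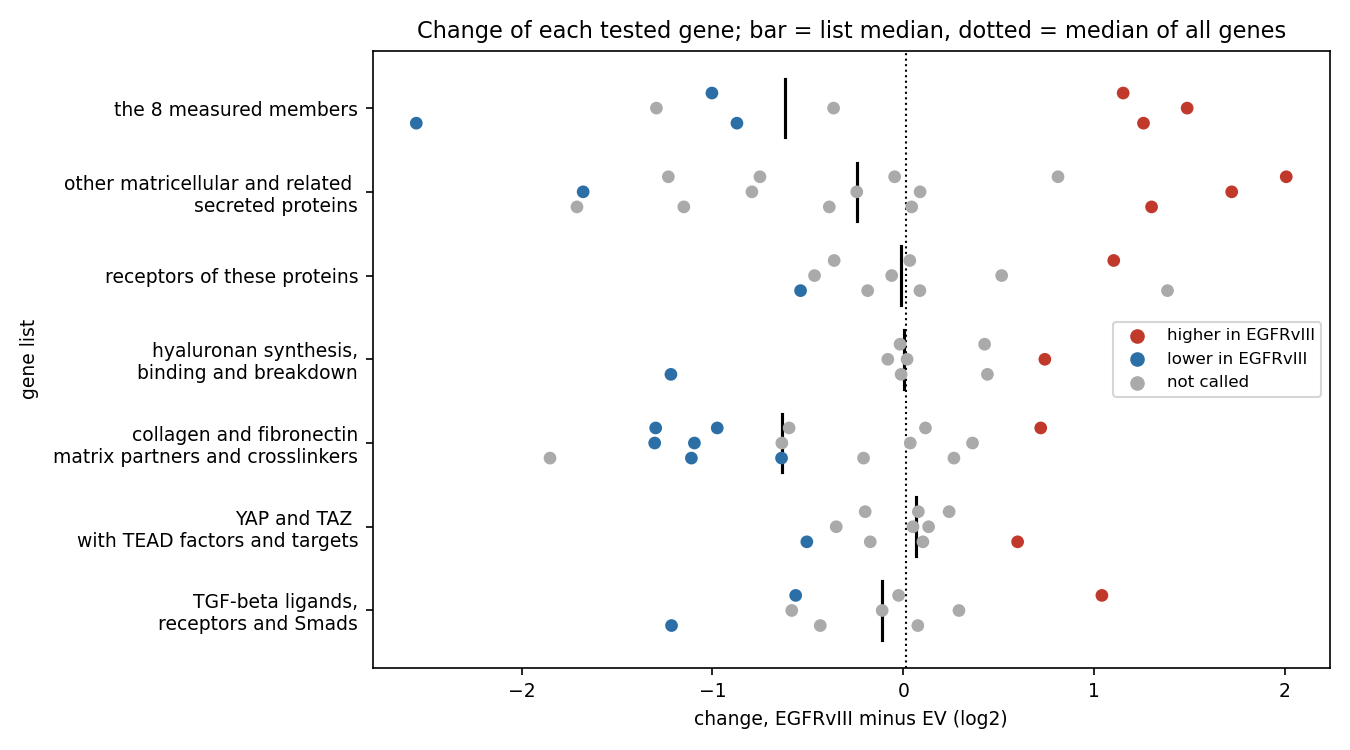
Change of each tested gene, EGFRvIII minus EV on the log2 scale (horizontal), for the 8 measured members and 6 lists of related genes (rows), coloured by call, with a bar at each list's median and a dotted line at the median of all genes. The members and the collagen list have the lowest medians, -0.62 and -0.64, and the members span from -2.55 for Postn to 1.49 for Ccn1.

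Promoter stretches of 250 bases before a transcript start were found in RefSeq (GRCr8) for 8 members: Ccn1, Ccn2, Cd44, Postn, Sparc, Spp1, Thbs1 and Tnc. For Postn, Spp1 and Cd44 the stretch lies inside the RefSeq gene, which begins further upstream, and for Tnc it does so in part. Thbs1 and Tnc had no expression value, and Fn1 and Thbs2 had no stretch to search. The stretches were searched on both strands for 4 motifs, beside 27457 promoters of the same length. The TEAD letters GGAATG stood in 4 of the 8 (Ccn1, Ccn2, Sparc and Thbs1), against 11.8% of all promoters. The letters TATAAA stood in 5 of the 8 (Ccn1, Ccn2, Postn, Spp1 and Tnc), against 13.1% of all. They lay 31 to 44 bases before the start in Ccn1, Ccn2 and Postn, but 204 bases before it in Spp1 and 208 in Tnc. The SMAD letters CAGACA stood in 3 of the 8 (Ccn1, Sparc and Tnc), against 16.9% of all. The AP-1 letters TGACTCA stood in 0 of the 8, against 3.98% of all. Such a match describes these letters and does not show a bound site.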

How the data were processed

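Illumina RatRef-12 bead arrays were hybridised with cRNA amplified from about 100 ng of RNA per tumour. The deposited table gives average signal intensity per probe, per the file headers, with values down to -15.7, so the authors had subtracted a background. Its deposited detection score is a fraction from 0 to 1, taken here as 1 minus the detection p. The submitters' processing notes name Partek, with no version or role. A second deposited table holds log2 values that, judged by the values alone, were quantile-normalized by the authors; it served as an alternative.

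Intensities were processed with neqc (limma 3.58.1, R 4.3.3): normexp background correction, offset 16, quantile normalization and log2. Symbols came from the probe annotation (13793 of 22523 probes had 1 symbol and 8730 had no single symbol). A probe without a single symbol was treated as its own gene. A probe was kept if its detection p was below 0.05 on 6 or more of the 12 arrays (11862 probes), and the brightest probe stood for a gene. EGFRvIII was set against EV in a limma fit (lmFit, then eBayes with trend; two-sided, 10 residual degrees of freedom), adjusted by Benjamini-Hochberg over 11695 genes. Pairs of members were compared by exact permutation of tumours, and correlations by 100000 within-group permutations (Python 3.11.15, numpy 2.4.6, scipy 1.17.1). The fit was tested on simulated data with independent genes and planted changes. That simulation does not cover genes that vary together among tumours. Arrays give no depth, and their number limits the precision. With no scan date or slide in the files used, no batch could be tested. Protein sequences were not analysed here.

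The members, the lists and several alternatives were chosen with earlier results of these data known. Named genes were the 10 members, the 2 largest called rises and falls of each list, and the 3 genes most like Postn and Cd44; Tgfbi was added after its values were seen. Rats are numbered 1 to 6 in both groups, but same-numbered rats correlated at -0.34 to -0.06 after group means were removed, so no pairing was used.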

Additional observations from a re-analysis of the deposited data

Results flagged for a closer look

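Dixon's test at the 95% level was applied to each group of 6 tumours for the 8 measured members and 16 related genes named in the report. It marked 6 of 48 groups, and 5 of the 6 concerned EV rat 3. The marked tumours stood apart from the rest of their own group. Chance marks about 1 in 20 independent groups, but these groups are the same tumours measured for different genes. The related genes were also named from their changes in these data. The share of all genes marked by the same test was not computed, so the count is not read as more than chance or as particular to these genes.

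EGFRvIII rat 2 had a Ccn1 level of 9.66, above the 7.98 to 8.36 of the other EGFRvIII tumours. EV rat 3 had a Ccn1 level of 9.44, against 6.24 to 6.54 in the other EV tumours. EV rat 3 also had an Fn1 level of 12.88 (others 12.16 to 12.38), a Ccn5 level of 8.82 (others 6.86 to 7.40) and a Col3a1 level of 12.43 (others 10.51 to 11.16). Its Lgals3 level of 9.64 was below those of the other EV tumours (10.84 to 11.56).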

How the results depend on the processing

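Postn, Fn1, Spp1 and Cd44 kept their direction and their call, and Sparc its lack of one, under all 27 alternatives, as did the pairs Ccn1 minus Ccn2 and Fn1 minus Postn under their 13. Over the 27, the adjusted p was at most 0.00148 for Postn, 0.0197 for Fn1, 0.0143 for Spp1 and 0.00235 for Cd44. The rise of Ccn1 was no longer called with a floor of 16 and no normexp (1.68), median scaling (1.31), no detection filter (1.49), a robust trend (1.49), an offset of 50 (1.22), or without EV rat 2 and EGFRvIII rat 1 (1.43), and over single tumours left out it lay between 1.23 and 2.00. Its adjusted p ran from 3.2e-04 to 0.102. Thbs2 lost its call without EV rats 2 and 3 (-0.77) and without EV rat 2 and EGFRvIII rat 1 (-1.03), with -1.12 to -0.77 over single tumours left out. Ccn2 was called after median scaling (-1.37), with -1.51 to -0.85 over single tumours left out. The sign of Spp1 minus Cd44, never called, turned without EV rat 1 (-0.15) and without EV rat 5 (-0.08), its range being -0.15 to 0.33.

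With the rat number as a replicate block, which the labels do not tie to a shared source, the Ccn1 change of 1.49 had an adjusted p of 0.0792 and 1817 genes were called in place of 2519; rats of the same number matched best in 0 of 6 cases. Median scaling over all probes called 768 genes higher; over detected probes, an alternative chosen after seeing the data, 2157 were higher, the median of all genes was 0.11 in place of 0.01, and Fn1 was at -0.59. Median changes of lists moved by more than the spread between tumours for receptors (0.15, scaling over detected probes), YAP and TAZ (-0.068, median scaling) and TGF-beta (-0.31 with median scaling, -0.25 with array weights, -0.29 without EV rats 2 and 3). Over all alternatives, called genes numbered 1 to 3 lower among other matricellular proteins (1 in the report), 1 to 3 higher and 1 to 2 lower among receptors, 0 to 1 higher in the hyaluronan list, 0 to 2 higher and 3 to 7 lower in the collagen list, 0 to 1 higher and 1 to 2 lower for YAP and TAZ, and 2 to 4 lower for TGF-beta. Causes were not tested. Probes near background limit Thbs2, Itgb8, Tgfb2 and Or8k20.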
